A study of Homo sapiens with 18 samples.

Results

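A set of 107 protein-coding genes read out in MDA-MB-231 cells with a control hairpin, and almost absent from the same cell line with a hairpin against IGFBP6, is described here. MDA-MB-231 is a triple-negative, mesenchymal human breast cancer cell line. A gene entered the set when it was autosomal, averaged under 0.5 CPM (a gene's count over the library's summed gene counts, scaled by 1e6) over the 9 sh-IGFBP6 libraries and averaged at least 5 CPM over the 9 sh-LUC libraries. INHBB, SLCO2A1, collagens, laminins and ZNF genes were left out by name, which removed 4 of 111 genes (INHBB, SLCO2A1, COL18A1 and COL6A2). The 107 stand among 60709 genes with counts, 18966 protein-coding autosomal genes and 10348 of these that reached 5 CPM in sh-LUC. The members were therefore chosen by the difference between the lines itself, and that difference is given as a description without a test. The same limits in the other direction were met by 72 genes.

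RNA was sequenced from 18 samples in 6 groups of 3. The sh-IGFBP6 groups received 200 µM docosahexaenoic acid (DHA, an omega-3 polyunsaturated fatty acid), 2.5 µM erastin (which blocks the cystine importer and so induces ferroptosis, an iron-dependent death by lipid peroxidation), or control medium with 0.5% DMSO and 0.5% ethanol. The sh-LUC groups, whose hairpin targets luciferase and which the labels call WT, received the same 3 media. For DHA the labels give 0.5% DMSO and no ethanol value, and for erastin 0.5% ethanol and no DMSO value. Treatment lasted 24 h and began 24 h after plating 800000 cells in a well. Every group shares the parental line and a hairpin, and 1 line stands for each hairpin, so the effect of IGFBP6 loss and other differences between 2 separately made lines cannot be told apart. Nothing in the labels says that the samples of a group were grown apart, so each p-value covers the variation among these samples, possibly technical variation alone.

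IGFBP6 is a secreted protein that binds insulin-like growth factor 2 and limits its action. Lasting silence of a gene in cultured cells is known to go with closed chromatin or methylated promoter DNA, neither of which RNA counts measure. The members hold several well-known kinds of gene: G protein-coupled and growth factor receptors, which carry signals from outside the cell; cystatins, which are secreted inhibitors of cysteine proteases; solute carriers, which move nutrients and ions over membranes; and regulators of the Wnt and hedgehog pathways, which set cell fate in development.

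Gene counts ran between 609936 and 7153762 in sh-IGFBP6 libraries and between 2708143 and 7977429 in sh-LUC libraries, and the sh-LUC control libraries (2708143 to 4043424) were shallower than the treated sh-LUC libraries (5666029 to 7977429). The library of sh-IGFBP6 erastin replicate 3 stood apart: it had the 609936 counts, and 54.4% of them fell on mitochondrial ribosomal RNA, against 0.0349 to 0.504% in the other libraries. One read in it equals 3.81 CPM on the scale used below, which is CPM with TMM-adjusted library sizes. IGFBP6 itself had 0.42 to 3.81 CPM in sh-IGFBP6 libraries and 12.3 to 20.9 CPM in sh-LUC libraries. Among markers of the line, the mesenchymal filament VIM had at least 1010 CPM in sh-IGFBP6 and at least 750 CPM in sh-LUC libraries, while ESR1 and PGR reached at most 3.0 CPM in any library. The epithelial cadherin CDH1 had 0 to 0.27 CPM in sh-IGFBP6 and 1.83 to 7.21 CPM in sh-LUC libraries. ERBB2 was not absent, with 66.3 to 91.9 CPM in sh-IGFBP6 and 74.5 to 106 CPM in sh-LUC. EPCAM had 8.11 to 22.9 CPM in sh-IGFBP6, against 2.83 to 5.87 CPM in sh-LUC. Of the other mesenchymal markers, MSN had 737 to 908 CPM in sh-IGFBP6, against 749 to 944 CPM. CD44 had 543 to 705 CPM, against 1260 to 1440 CPM. AXL had 686 to 961 CPM, against 1330 to 1610 CPM, and LGALS1 105 to 140 CPM, against 198 to 430 CPM. Of 13 markers of leukocytes, fibroblasts and endothelium, PDGFRB, itself a member, had 0 to 0.901 CPM in sh-IGFBP6 and 11.6 to 37.9 CPM in sh-LUC, and the others stayed at or below 5.67 CPM. In these bulk samples, fewer cells that express a gene and less RNA per cell cannot be told apart.

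The 107 members together held 672 of 37143272 counts in sh-IGFBP6, against 122218 of 53570829 counts in sh-LUC. Per library their summed level by the rule's CPM, without TMM, was 9.84 to 22.2 in sh-IGFBP6 and 1850 to 3040 in sh-LUC. The 9.84 was that of sh-IGFBP6 erastin replicate 3, from 6 reads. Of the members, 19 had 0 reads in all 9 sh-IGFBP6 libraries, 34 had 1 to 3 reads over the 9 libraries and 54 had more, up to 22 for OLFML2A. In sh-LUC every member had reads in every library, with a median of 597 reads per member over the 9 libraries. The 2 lines did not overlap for 104 members, a count that the rule largely fixes in advance. For P2RY6, ATOH8 and SLC2A10 they did, because the highest sh-IGFBP6 library (3.81, 0.945 and 3.81 CPM) lay above the lowest sh-LUC library. The median level in sh-LUC by the rule's CPM was 11.9, 34 members reached 20 CPM and 46 stayed under 10 CPM.

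**Figure D1:**
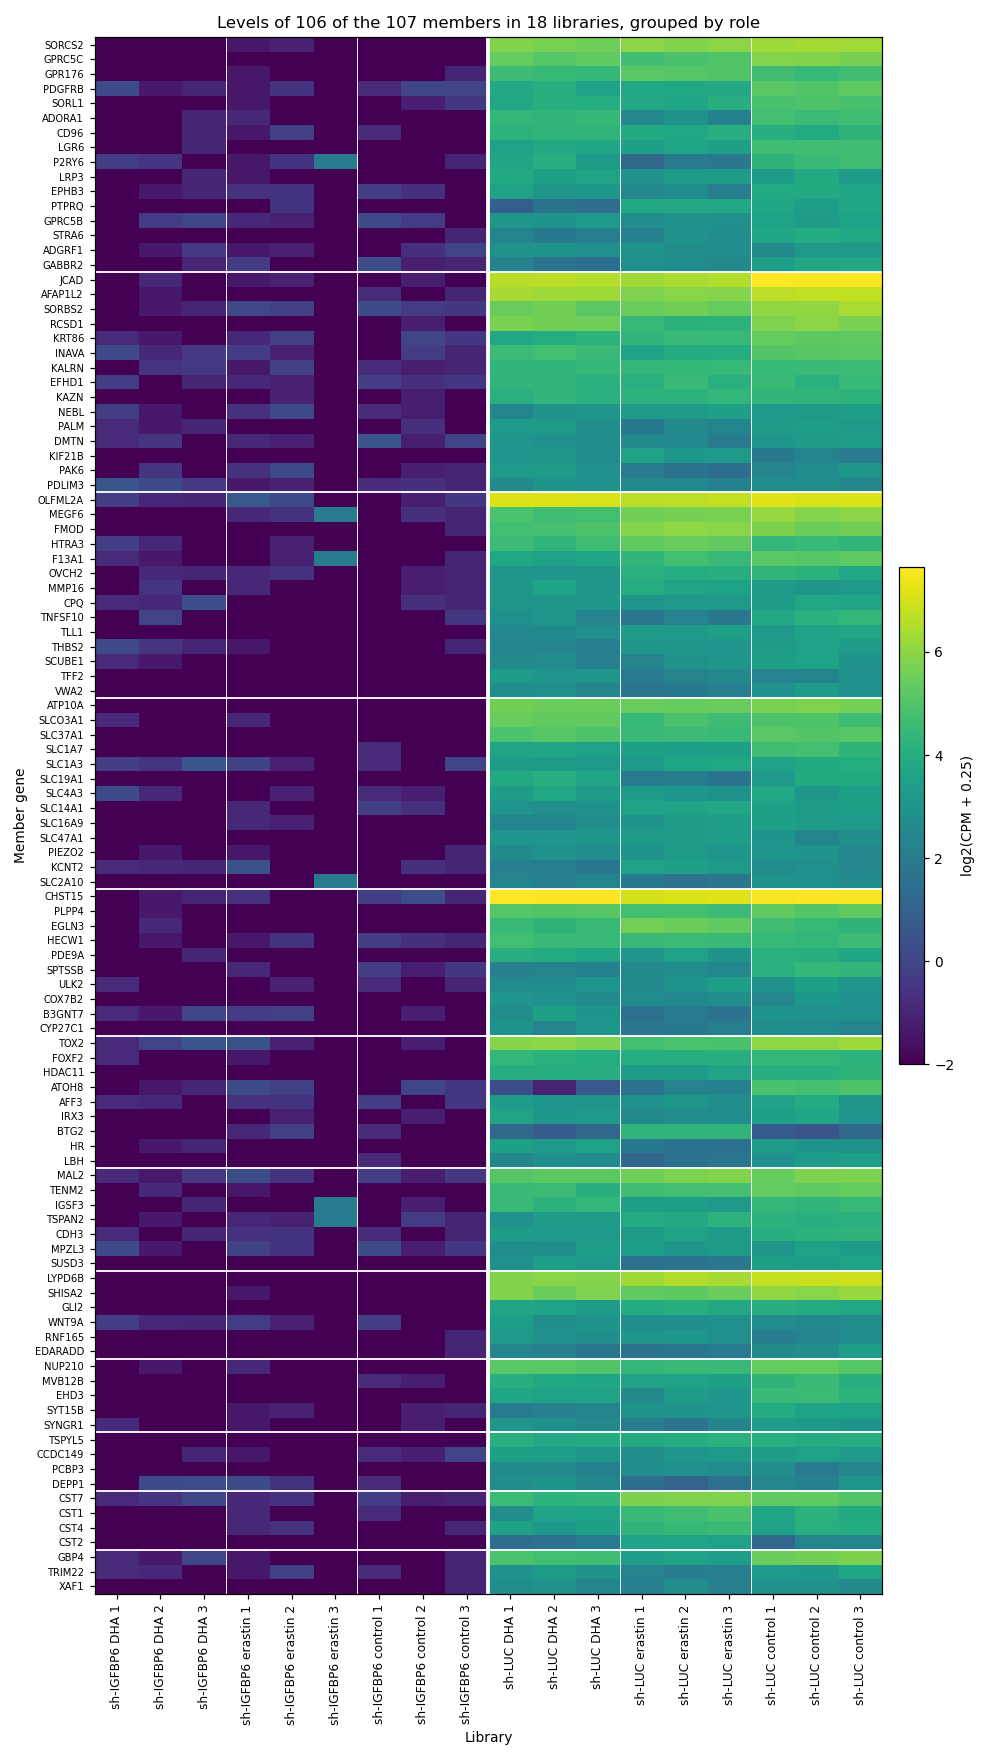
Levels of 106 of the 107 members (rows, in 12 groups by role separated by white lines) in 18 libraries (columns, sh-IGFBP6 left of sh-LUC) as log2 of CPM + 0.25, dark for low and bright for high. The sh-IGFBP6 side is near the dark end apart from single reads in erastin replicate 3, and on the sh-LUC side ATOH8 darkens in the DHA and erastin columns.

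The choice of limits sets who is a member. SLC1A3 (0.498 CPM by the rule), OLFML2A (0.471) and SORBS2 (0.457) lay just inside the sh-IGFBP6 limit, while NRG2 (0.512), RNF43 (0.521), MFNG (0.522) and CDH11 (0.532 in sh-IGFBP6 and 309 in sh-LUC) lay just outside it. At the sh-LUC limit SLC2A10 (5.02 CPM), EDARADD (5.14), DEPP1 (5.15) and CYP27C1 (5.62) were inside, and ADAMTS7 (4.92), RCAN2 (4.91), FRY (4.79) and TFF3 (4.72) outside.

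The member with the highest level in sh-LUC was CHST15 (chr10:124007666-124093607, GRCh38, minus strand), a sulfotransferase of chondroitin sulfate. It had 0 to 0.964 CPM in sh-IGFBP6 and 131 to 201 CPM in sh-LUC libraries, 13 reads against 9360 reads over the 9 libraries of each line. OLFML2A, a secreted olfactomedin-domain protein, averaged 0.471 CPM in sh-IGFBP6 and 131 CPM in sh-LUC by the rule. JCAD, a junctional protein known from endothelial cells, averaged 0.0978 CPM in sh-IGFBP6 and 129 CPM in sh-LUC by the rule. LYPD6B (chr2:149038107-149215262, plus strand), a LY6/PLAUR-domain membrane protein, had no read in sh-IGFBP6 and 56.3 to 124 CPM in sh-LUC, at least 1016-fold lower in sh-IGFBP6 when 3 reads over all 9 libraries are taken as the floor. The phospholipid flippase ATP10A, with no read in sh-IGFBP6, had 41.3 to 54.7 CPM in sh-LUC, at least 566-fold lower. GPRC5C, an orphan receptor, also had none, and had 25.4 to 58.0 CPM in sh-LUC, at least 469-fold lower. SHISA2, a relative of the frog protein Shisa, which holds back Wnt and fibroblast growth factor receptors, had 1 read in sh-IGFBP6, a fold of 1869 with an exact interval of 335 to 73860, which covers counting error only.

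Sequence just before the start was looked at for members that carry this result: the 2 highest members without a read, the highest with a single read, and an adjacent pair on chromosome 3. The 150 bases before the RefSeq start of each, GRCh38.p14, are printed 5′ to 3′ on the gene's strand, with each CG pair in capitals, because CG pairs are the sites at which promoter DNA can be methylated. LYPD6B lies at chr2:149077372-149077521 (plus), ATP10A at chr15:25863328-25863477 (minus), SHISA2 at chr13:26052017-26052166 (minus), NUP210 at chr3:13420323-13420472 (minus) and HDAC11 at chr3:13480156-13480305 (plus). The windows of LYPD6B, ATP10A and HDAC11 lie within the span that GENCODE 29 gives these genes, which has starts further upstream. For LYPD6B that span begins at 149038107. The span of SHISA2 ends at 26051031, so its window lies upstream of it. Which start was in use was not tested, so the CG counts are not compared as those of like promoters.
LYPD6B: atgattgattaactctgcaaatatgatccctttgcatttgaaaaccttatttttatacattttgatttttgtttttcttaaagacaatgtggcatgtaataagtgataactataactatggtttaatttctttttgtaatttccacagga
ATP10A: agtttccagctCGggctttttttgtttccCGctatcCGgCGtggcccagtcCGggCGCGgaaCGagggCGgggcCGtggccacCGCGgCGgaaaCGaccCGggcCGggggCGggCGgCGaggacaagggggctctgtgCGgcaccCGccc
SHISA2: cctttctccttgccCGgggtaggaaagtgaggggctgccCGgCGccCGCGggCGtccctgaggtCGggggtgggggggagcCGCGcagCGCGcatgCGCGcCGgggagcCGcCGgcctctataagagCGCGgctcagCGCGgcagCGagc
NUP210: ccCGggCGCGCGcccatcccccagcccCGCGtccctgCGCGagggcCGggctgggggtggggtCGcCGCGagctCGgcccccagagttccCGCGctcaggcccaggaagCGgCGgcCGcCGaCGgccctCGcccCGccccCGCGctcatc
HDAC11: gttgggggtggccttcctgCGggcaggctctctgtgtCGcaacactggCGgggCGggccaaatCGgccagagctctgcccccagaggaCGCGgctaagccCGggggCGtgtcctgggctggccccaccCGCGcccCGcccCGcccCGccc
LYPD6B held 0 CG pairs and 26.0% G or C. ATP10A and SHISA2 held 21 pairs each, a number reached by 10.0% of the 26246 autosomal promoters in the table. NUP210 held 24, reached by 4.56%, and HDAC11 held 14, reached by 30.6%. The median over all promoters was 7. CG was searched as the letters CG, which reads the same on both strands. Only 77 of 107 members (72.0%) matched the table, under the 80% needed, so a comparison of the whole set was void.

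The members were read against the treatments next, in sh-LUC cells, where every member could be measured. All 107 passed the low-count filter and were tested among 15189 genes with edgeR's quasi-likelihood test and Benjamini-Hochberg adjustment over all of them. After DHA 45 members fell and 2 rose, against 9.63% of all genes tested that fell and 7.14% that rose. After erastin 61 members fell and 14 rose, against 24.4% that fell and 21.4% that rose. Among protein-coding autosomal genes with at least 5 CPM in sh-LUC, a closer match in level, 11.9% fell and 9.11% rose after DHA, and 30.3% fell and 23.4% rose after erastin. The members' own shares were 42.1% down and 1.87% up for DHA, and 57.0% down and 13.1% up for erastin. The 2 treatments share the control libraries, so their counts are given side by side and not combined. The 5 CPM limit averaged treated and control sh-LUC libraries together, so genes low in controls could enter through a rise. By both limits on the 6 control libraries alone, 97 of the 107 were found again.

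The sizes of the changes were compared as a description. The median log2 fold change of the members was -0.37 for DHA, against 0.01 over all genes tested, and -0.52 for erastin, against -0.02 over all genes tested. At least 2-fold lower among called genes were 16 members (15%) after DHA, against 1.18% of all genes, and 31 members (29.0%) after erastin, against 4.58%. By the rule's CPM, without TMM, the members summed to 2320, 2320 and 2200 in DHA libraries of sh-LUC. They summed to 1850, 1980 and 2040 in erastin libraries, against 3020, 3020 and 3040 in control libraries. The treated groups do not overlap the controls. Left uncalled were 60 members for DHA and 32 for erastin. The control libraries were the shallowest of the sh-LUC line, and the part of depth in these counts was not tested.

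**Figure D2:**
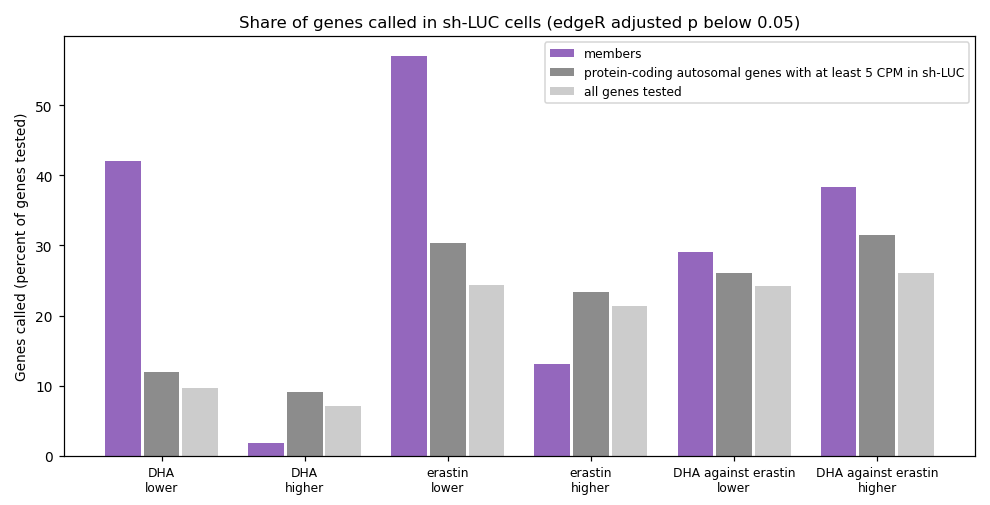
Percent of genes called lower or higher in sh-LUC cells at an edgeR adjusted p below 0.05, for DHA over control, erastin over control and DHA over erastin, in the 107 members, in protein-coding autosomal genes with at least 5 CPM, and in all 15189 genes tested. The members' bars for lower after DHA (42.1%) and lower after erastin (57.0%) stand above both background bars, and their bars for higher after DHA (1.87%) and higher after erastin (13.1%) stand below them.

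Counts by role, here and below, stand against 11.9% down and 9.11% up after DHA among protein-coding autosomal genes with at least 5 CPM in sh-LUC. After erastin these shares were 30.3% down and 23.4% up. The roles hold few genes, so no result about a role is read from its count. Among the transcription and chromatin factors 3 of 10 fell after DHA and none rose, while 8 fell and 1 rose after erastin. ATOH8, a basic helix-loop-helix factor, gave the largest response to DHA of any member: 0.996, 0.232 and 1.36 CPM in DHA libraries, against 29, 28.0 and 31.1 CPM in control libraries. The log2 fold change was -5.13 ± 0.25 (SE, edgeR adjusted p = 3.9e-38), and the groups lie far apart. Erastin libraries had 3.05, 4.66 and 4.47 CPM, a log2 fold change of -2.84 ± 0.18 (edgeR adjusted p = 1e-28). In sh-IGFBP6 ATOH8 had 0 to 0.945 CPM, so 1 of the 3 DHA libraries of sh-LUC lay within the range of the knockdown line and the others just above it. LBH, a transcription cofactor known as a Wnt target, had 2.18, 2.8 and 3.2 CPM after erastin, against 7.08, 9.62 and 10.8 CPM in controls, a log2 fold change of -1.76 ± 0.26 (edgeR adjusted p = 3e-09). HDAC11, the class IV histone deacetylase, fell after erastin by 0.71 on the log2 scale and had -0.12 ± 0.15 after DHA, where it was not called.

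BTG2, an antiproliferative gene known as a target of p53, went the other way. It had 19.6, 19.6 and 19.9 CPM in erastin libraries, against 1.42, 1.2 and 2.16 CPM in control libraries, a log2 fold change of 3.56 ± 0.26 (edgeR adjusted p = 9.8e-25). DHA libraries had 2.16, 1.51 and 2.05 CPM and overlapped the controls (0.18 ± 0.41, not called). In sh-IGFBP6 BTG2 had 0 to 0.63 CPM in all libraries, so its erastin rise could be followed only in sh-LUC. KIF21B, a kinesin with no read in sh-IGFBP6, rose after both treatments, with 8.13, 8.34 and 6.28 CPM after DHA and 11.6, 8.53 and 8.82 CPM after erastin, against 3.54, 4.81 and 3.83 CPM in controls. Its rise after DHA (0.90 ± 0.26, edgeR adjusted p = 0.0064) and that of the organic anion transporter SLCO3A1 (0.47 ± 0.11, edgeR adjusted p = 0.001) were not called by DESeq2. Without sh-LUC control replicate 3 neither was called by edgeR, at 0.85 and 0.35 on the log2 scale. BTG2 and KIF21B averaged under 5 CPM in controls and entered the set only through treated libraries. Their rises were thus partly chosen by the rule.

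Receptors were the largest role, with 16 members: 10 fell and 0 rose after DHA, and 11 fell and 1 rose after erastin. PDGFRB, the receptor of platelet-derived growth factor B, had 13.8, 16.8 and 11.6 CPM after DHA and 13.5, 13.5 and 14.1 CPM after erastin, against 35.7, 32.5 and 37.9 CPM in controls. Its log2 fold changes were -1.32 ± 0.13 for DHA and -1.37 ± 0.13 for erastin (edgeR adjusted p = 5.4e-16 and 1.3e-17). P2RY6, a receptor for extracellular UDP, had 2.18, 3.73 and 3.32 CPM after erastin, against 19.1, 22.5 and 25.4 CPM in controls, a log2 fold change of -2.86 ± 0.21 (edgeR adjusted p = 5.2e-24). The adenosine A1 receptor ADORA1 had 5.22, 7.33 and 4.47 CPM after erastin, against 27.2, 23.7 and 25.4 CPM in controls (-2.16 ± 0.17, edgeR adjusted p = 4.7e-23). PTPRQ, a receptor-type phosphatase, was called after DHA and not after erastin, with 1.66, 3.01 and 2.46 CPM in DHA libraries, against 12.4, 10.5 and 12.5 CPM in controls, while erastin libraries had 13.3, 13.9 and 13.6 CPM. Its log2 fold change with DHA was -2.26 ± 0.24 (edgeR adjusted p = 5.2e-14). STRA6, the retinol-binding protein receptor, fell after DHA by 1.73 on the log2 scale, and GABBR2, a subunit of the GABA-B receptor, by 1.88. GPR176, an orphan receptor, was the member of this role that rose after erastin (0.49 ± 0.12, edgeR adjusted p = 0.00028).

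The 2 sorting receptors of the VPS10 family among the members, SORL1 and SORCS2, both fell after each treatment, and SORT1, the remaining expressed member of the family, had 122 ± 36.8 CPM in sh-IGFBP6 and 284 ± 66.7 CPM in sh-LUC (SD, n = 9 each over all treatments). G protein-coupled receptors outside the set numbered 60 with at least 5 CPM; 7 of those fell and 3 rose after DHA, and 26 fell and 10 rose after erastin. LGR6, a receptor for R-spondins, had 0 to 0.251 CPM in sh-IGFBP6 and 10.6 to 25.9 CPM in sh-LUC. Its relatives stayed on in sh-IGFBP6, with 45.2 to 75.4 CPM of LGR4 and 23.7 to 51.0 CPM of LGR5, against 97.2 to 202 CPM and 3.92 to 20.7 CPM in sh-LUC.

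Expressed relatives were looked up next. Of 24 members whose closest families were looked up after the members were known, 22 had at least 1 other family gene at 5 CPM or more in sh-IGFBP6. No share over other genes was taken, so nothing is read from that count. GLI2, a hedgehog transcription factor with no read in sh-IGFBP6 and 9.96 to 17 CPM in sh-LUC, stood beside GLI3, with 58.2 to 80.2 CPM in sh-IGFBP6 and 36.3 to 64.9 CPM in sh-LUC. EGLN3, an oxygen-sensing prolyl hydroxylase, averaged 0.0323 CPM in sh-IGFBP6 and 29.5 CPM in sh-LUC, while EGLN1 averaged 25.6 CPM in sh-IGFBP6 and 27.7 CPM in sh-LUC. EHD3, an endosomal ATPase, had no read in sh-IGFBP6, where EHD1 averaged 174 ± 14.1 CPM, against 189 ± 15.8 CPM in sh-LUC (SD, n = 9). HDAC11 had no read while HDAC1 averaged 205 ± 14.9 CPM in sh-IGFBP6 and 129 ± 22.6 CPM in sh-LUC. SHISA3 was higher in sh-IGFBP6, with 22.9 to 96.2 CPM, against 4.21 to 19.5 CPM in sh-LUC. Other relatives were lower in sh-IGFBP6. EHD2 averaged 145 CPM there, against 387 CPM in sh-LUC, and SHISA4 6.17 CPM, against 19.2 CPM. SLC16A3, a relative of the member SLC16A9, averaged 47.4 CPM, against 454 CPM. HTRA1, a relative of HTRA3, averaged 3.04 CPM, against 51.3 CPM.

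The 4 cystatins rose together after erastin, and 3 of them fell after DHA. CST7, which inhibits lysosomal cathepsins, had 53.5, 54.4 and 54.6 CPM after erastin and 23.6, 18.9 and 20.2 CPM after DHA, against 38.2, 38.8 and 32.6 CPM in controls. CST1 had 23.4, 25 and 29 CPM after erastin and 6.64, 11.6 and 11.7 CPM after DHA, against 12.4, 18 and 14.1 CPM in controls. CST2 had 11.5, 12.1 and 11.1 CPM after erastin, against 2.12, 4.81 and 5.03 CPM in controls. CST2 reached the 5 CPM limit of the rule only through its erastin libraries, so its rise was partly chosen by the rule. For CST7 the 3 groups do not overlap, with erastin highest and DHA lowest. The log2 fold changes with erastin were 0.58 ± 0.10 for CST7, 0.80 ± 0.15 for CST1, 0.55 ± 0.15 for CST4 and 1.47 ± 0.24 for CST2, with edgeR adjusted p of 0.0011 or less. With DHA they were -0.81 ± 0.11 for CST7, -0.54 ± 0.18 for CST1, -0.55 ± 0.17 for CST4 and -0.46 ± 0.30 for CST2, the last not called by edgeR, and those of CST1 and CST4 not called by DESeq2. The fall of CST1 was lost without control replicate 2 (-0.39) or DHA replicate 1 (-0.35), and that of CST4 without control replicate 2 (-0.43), control replicate 3 (-0.49) or DHA replicate 2 (-0.42). CST1, CST2 and CST4 are near-identical copies, so reads may have been split or lost among them. CSTB, the cytosolic cystatin B, averaged 64.5 CPM in sh-IGFBP6 and 63.9 CPM in sh-LUC.

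**Figure D3:**
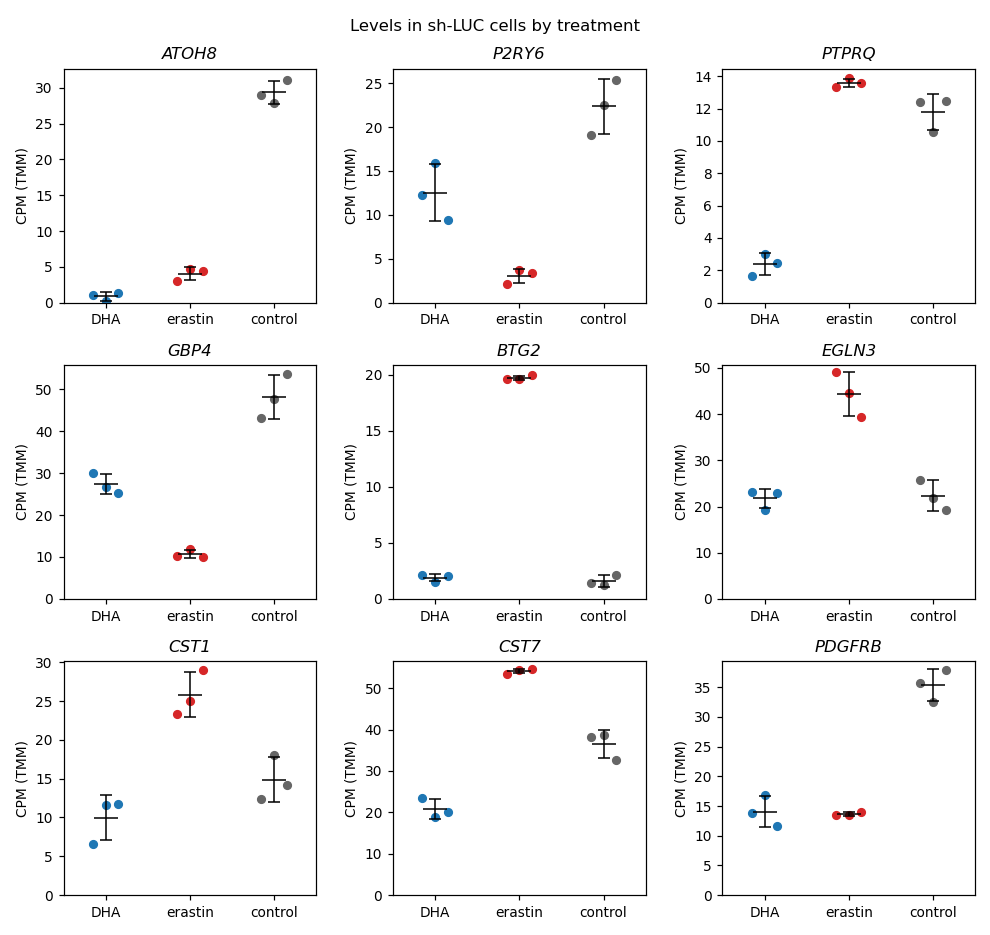
CPM (TMM-scaled, each axis starting at 0) of 9 members in sh-LUC cells, 3 libraries for each treatment as points, with the mean and SD as bars, in the order DHA, erastin, control. ATOH8 and PDGFRB are low after both treatments, BTG2 and EGLN3 are high after erastin alone, and PTPRQ is low after DHA alone.

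Other secreted and matrix proteins followed both patterns. Of 14 such members 8 fell and none rose after DHA, and 7 fell and 3 rose after erastin. TNFSF10, the death ligand TRAIL, had 6.97, 8.34 and 4.78 CPM after DHA and 3.19, 4.66 and 3.32 CPM after erastin, against 13.4, 17.7 and 20.6 CPM in controls, all treated libraries below all controls. F13A1, the catalytic subunit of coagulation factor XIII, had 13.1, 11.1 and 12.7 CPM after DHA, against 35.7, 34.0 and 37.9 CPM in controls (-1.56 ± 0.13, edgeR adjusted p = 4.4e-19). DESeq2 did not call it, where a gene left without a p-value also counts as not called. FMOD, a small leucine-rich proteoglycan that binds collagen fibrils, had 58.2, 64.9 and 61.9 CPM after erastin and 26.1, 27.6 and 30.4 CPM after DHA, against 53.4, 44.5 and 47.0 CPM in controls, a rise with erastin (not called with library size alone as the scaling) and a fall with DHA. The secreted serine protease HTRA3 rose with erastin (0.95 ± 0.12, edgeR adjusted p = 2.1e-11) and had 0.13 ± 0.13 with DHA, where it was not called. MEGF6, thrombospondin-2 (THBS2) and the procollagen-processing protease TLL1 each fell after DHA by 1.24, 1.10 and 0.94 on the log2 scale.

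The 13 carriers, pumps and channels gave 4 falls and 1 rise after DHA. After erastin they gave 5 falls and 2 rises, against 30.3% and 23.4% of protein-coding autosomal genes with at least 5 CPM. SLC19A1, the reduced folate carrier, had no read in sh-IGFBP6. In sh-LUC it had 3.77, 3.86 and 2.94 CPM after erastin, against 9.2, 14.1 and 14.1 CPM in controls, a log2 fold change of -1.85 ± 0.22 (edgeR adjusted p = 1.7e-12). SLC19A1 shares 14.0% of its exon length with COL18A1, so its counts are uncertain. COL18A1 had 0.188 CPM in sh-IGFBP6 and 329 CPM in sh-LUC by the rule's CPM. The glutamate transporter genes SLC1A7 and SLC1A3 fell after DHA by 0.94 and 0.57 on the log2 scale, although SLC1A3 was not called by DESeq2 or without control replicate 2 (-0.56) or 3 (-0.47). By symbol, 10 members are solute carriers, 5.29% of the 189 with at least 5 CPM in sh-LUC, and the other 179 had 18 falls and 27 rises after DHA, and 52 falls and 47 rises after erastin. KCNT2, a sodium-activated potassium channel, rose after erastin (0.78 ± 0.22, edgeR adjusted p = 0.0021).

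The cytoskeletal and junctional members, 15 genes, had 5 falls and 1 rise after DHA, and 9 falls and 1 rise after erastin. JCAD had 97.8, 99.6 and 93.5 CPM after DHA and 76.6, 85.8 and 91.9 CPM after erastin, against 198, 187 and 194 CPM in controls. RCSD1, a regulator of actin capping protein, had 21.6, 18.3 and 18.8 CPM after erastin, against 55.6, 62.5 and 52.5 CPM in controls (-1.54 ± 0.11, edgeR adjusted p = 8.9e-26), while its DHA libraries had 52.1, 48.6 and 45.3 CPM and were not called. PAK6, a serine/threonine kinase of the p21-activated family, shares 44.1% of its exon length with the BUB1B-PAK6 read-through gene, so its counts are uncertain.

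Among 10 enzymes, 1 fell after DHA, where 11.9% of protein-coding autosomal genes with at least 5 CPM fell. After erastin 6 fell and 1 rose, against 30.3% and 23.4% of those genes. SPTSSB, a small subunit of serine palmitoyltransferase that starts sphingolipid synthesis, was the enzyme that fell after DHA: 4.32, 4.75 and 4.5 CPM, against 17.7, 21.3 and 20.1 CPM in controls (-2.12 ± 0.19, edgeR adjusted p = 3.1e-18). It had 5.51, 6.0 and 5.37 CPM after erastin. EGLN3 had 49.0, 44.6 and 39.4 CPM after erastin, against 25.8, 21.9 and 19.2 CPM in controls, a log2 fold change of 1.01 ± 0.12 (edgeR adjusted p = 1.4e-12). CHST15 fell after erastin by 0.45 on the log2 scale and had 0.06 ± 0.06 after DHA, where it was not called.

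The 3 interferon-inducible members include GBP4, a guanylate-binding GTPase, with 30.0, 26.6 and 25.4 CPM after DHA and 10.2, 11.9 and 10.1 CPM after erastin, against 43.2, 47.8 and 53.7 CPM in controls. TRIM22, an antiviral E3 ligase, fell after erastin by 1.28 on the log2 scale. XAF1, a proapoptotic antagonist of XIAP, was called after neither treatment. Of the 6 members grouped under Wnt, hedgehog and ectodysplasin signalling, 3 fell after DHA, and 3 fell and 1 rose after erastin. LYPD6B had 56.3, 60.8 and 58.0 CPM after DHA and 77.2, 91.9 and 83.4 CPM after erastin, against 113, 119 and 124 CPM in controls. RNF165 was the one that rose (0.64 ± 0.24, edgeR adjusted p = 0.021). It was placed in this group although it is a ubiquitin ligase of the bone morphogenetic protein pathway. DESeq2 did not call its rise. Nor did the fits without control replicate 1 (0.51), control replicate 2 (0.59), erastin replicate 1 (0.60) or erastin replicate 2 (0.59).

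Of 7 adhesion and small membrane proteins, 4 fell after each treatment. CDH3, P-cadherin, had 9.63, 8.92 and 8.74 CPM after DHA and 9.28, 11.5 and 9.84 CPM after erastin, against 17, 18.3 and 19.4 CPM in controls. SUSD3, a sushi-domain membrane protein without a read in sh-IGFBP6, fell after erastin by 1.84 on the log2 scale. The 5 members of vesicle traffic and the nuclear pore all fell after erastin and 3 fell after DHA, with EHD3 at 5.66, 9.59 and 8.05 CPM after erastin, against 23, 23.7 and 18.7 CPM in controls.

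Other members had similar levels in all sh-LUC groups. KAZN, a cell junction protein, had 17.4, 20.4 and 17.5 CPM after DHA and 18.4, 18.8 and 20.7 CPM after erastin, against 20.2, 19.5 and 18.7 CPM in controls. It shares 24.9% of its exon length with TMEM51-AS1, so its counts are uncertain. The ubiquitin ligase HECW1 had 26.4, 22.2 and 23.1 CPM after DHA and 23.2, 23.8 and 23 CPM after erastin, against 21.9, 20.7 and 24.4 CPM in controls. TSPYL5, a nucleosome assembly protein relative with no read in sh-IGFBP6, had 16.9, 13.9 and 15 CPM after DHA and 14.5, 15.3 and 17.6 CPM after erastin, against 16.6, 15 and 16.1 CPM in controls. The treated and control libraries of these 3 genes overlap, and edgeR called none of them.

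**Figure D4:**
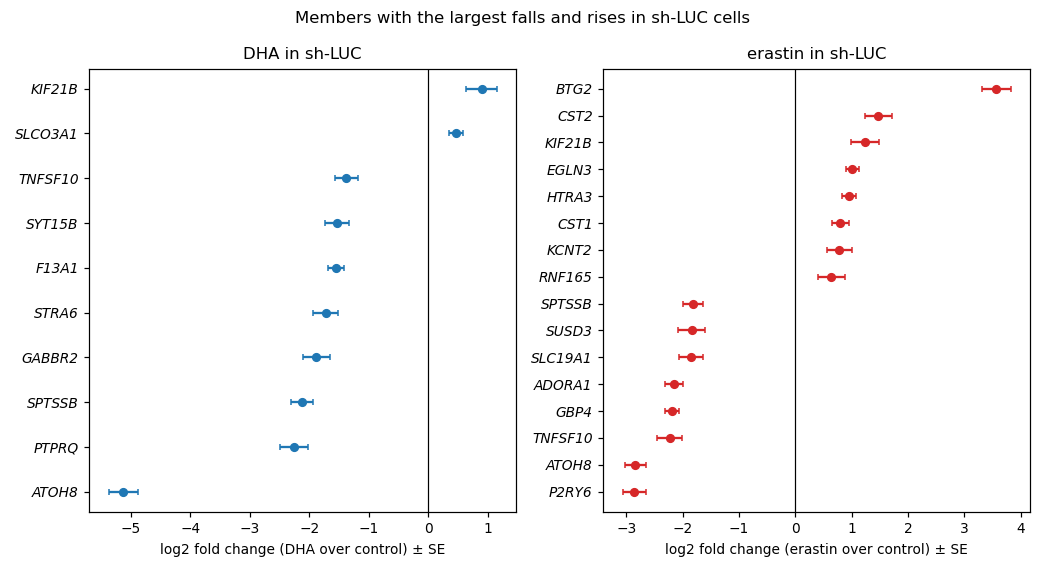
Log2 fold changes over control (points, with SE as bars) of the members with the largest falls and rises in sh-LUC cells, DHA left and erastin right. The DHA panel holds 8 falls and the 2 rises that were called, with ATOH8 lowest at -5.13, and the erastin panel holds 8 of each, with BTG2 highest at 3.56.

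DHA and erastin were also set against each other directly in sh-LUC. With DHA 41 members were higher and 31 lower than with erastin, against 26.0% and 24.2% of all genes tested and 31.5% and 26.1% of protein-coding autosomal genes with at least 5 CPM. The members' shares were 38.3% and 29.0%, near that background for the lower genes. Lower with DHA were BTG2 (-3.38 ± 0.20), PTPRQ (-2.46 ± 0.20), ATOH8 (-2.29 ± 0.34), CST2 (-1.94 ± 0.21), CST7 (-1.39 ± 0.09), KCNT2 (-1.36 ± 0.20) and CST1 (-1.34 ± 0.13). Higher with DHA were SLC19A1 (2.02 ± 0.19), P2RY6 (2.02 ± 0.20), ADORA1 (1.85 ± 0.15), the transcriptional corepressor HR (1.73 ± 0.21), SUSD3 (1.52 ± 0.21) and the glycosyltransferase B3GNT7 (1.45 ± 0.21). Each had an edgeR adjusted p of 4.5e-09 or less, and its libraries did not overlap between the treatments. Left uncalled were 35 members.

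In sh-IGFBP6 cells the members were chosen for having few reads, and they passed the low-count filter only through sh-LUC, since none passed it in the 9 sh-IGFBP6 libraries alone. The calls below, and how far they lie from the shares over other genes, are therefore set by that choice, and nothing is read from them. After DHA 2 members (1.87%) were called higher and 2 lower by edgeR, against 17.4% higher and 16.8% lower of all genes tested and 21.3% and 19.1% of the protein-coding autosomal genes with at least 5 CPM in sh-LUC. After erastin 3 members (2.8%) were called higher and 0 (0.0%) lower, against 14.7% higher and 14.3% lower of all genes and 17.2% and 17.6% of the same protein-coding genes. At an unadjusted p below 0.05 edgeR gave 4 higher and 6 lower after DHA and 5 higher and 1 lower after erastin, and DESeq2 gave 2 higher and 2 lower after DHA and 4 higher and 0 lower after erastin. With adjusted p DESeq2 called 0 in either direction after either treatment. TOX2, an HMG-box factor, had 1, 5 and 5 reads after DHA and 8, 1 and 0 reads after erastin, against 0, 1 and 0 reads in controls. DEPP1, a target of FOXO factors, had 0, 6 and 4 reads after DHA and 7, 2 and 0 reads after erastin, against 1, 0 and 0 reads in controls. OLFML2A had 10, 4 and 0 reads after erastin, against 0, 1 and 2 reads in controls. SPTSSB had 0 reads in all DHA libraries, against 2, 1 and 2 reads in controls, and the urea transporter SLC14A1 had 0, against 2, 2 and 0 reads. None of these 7 calls held in all the fits that left out 1 library.

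The share of members differed by chromosome, given without a test. On chromosome 21, 5 of 102 genes with at least 5 CPM in sh-LUC were members, 4.9%, against 1.55% on chromosome 1 (17 of 1094), 2.13% on chromosome 10 (9 of 423) and 0.205% on chromosome 7 (1 of 488). Along the chromosomes, 17 pairs of successive members lay within 1 Mb, counted start to start, and involved 30 members. The cystatins CST4 (chr20:23685640-23689040), CST1 (chr20:23747553-23751268) and CST2 (chr20:23823769-23826731), all on the minus strand of GRCh38, stood in a row with no other expressed gene between them. CST3, cystatin C, 58.9 kb from CST4 and a nearest neighbour, kept 76.9 CPM in sh-IGFBP6, against 286 CPM in sh-LUC by the rule's CPM. ADORA1, BTG2 and FMOD followed each other on chromosome 1, with 35.1 kb between the starts of BTG2 and FMOD. TFF2, a secreted mucosal peptide, SLC37A1, a sugar-phosphate exchanger, and PDE9A, a cyclic GMP phosphodiesterase, followed each other on chromosome 21. NUP210, a nuclear pore protein, and HDAC11 were adjacent on chromosome 3. After erastin in sh-LUC, ADORA1 fell while BTG2 and FMOD rose, the 3 cystatins in a row all rose, and NUP210 and HDAC11 both fell.

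The nearest expressed gene on each side of a member was itself under 0.5 CPM in sh-IGFBP6 in 28 of 214 cases (13.1%), against 192 of 20430 cases (0.94%) around the other genes with at least 5 CPM in sh-LUC and 0.5 CPM or more in sh-IGFBP6. Over all of these neighbours the median log2 ratio of sh-IGFBP6 over sh-LUC was -0.49 for members' neighbours and -0.06 for the neighbours of other genes. At 5 CPM or more in sh-IGFBP6 were 75.2% of members' neighbours, against 94.4% around other genes. Of the members, 23 had at least 1 silent neighbour, and 5 had silent neighbours on both sides. These shares describe the same libraries that chose the members and carry no test. LYPD6, the neighbour and relative of LYPD6B, averaged 13.7 ± 5.81 CPM in sh-IGFBP6 and 52.4 ± 7.67 CPM in sh-LUC (SD, n = 9 each).

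**Figure D5:**
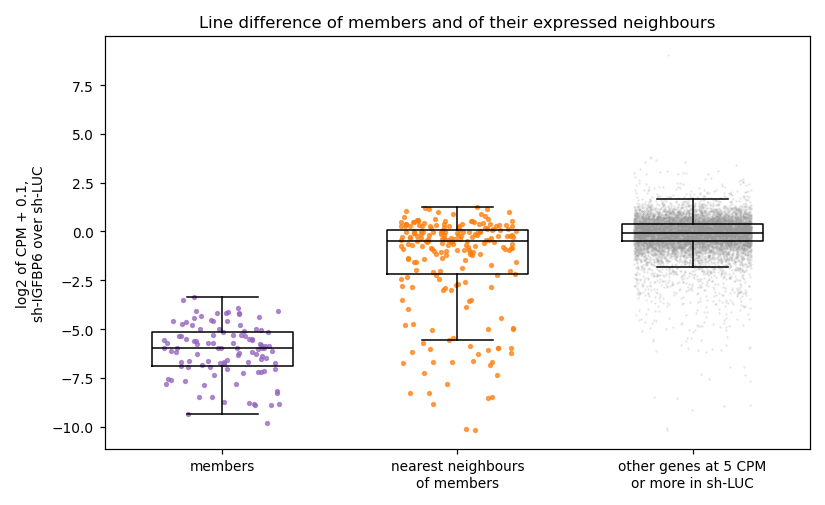
Log2 of the ratio of rule CPM + 0.1, sh-IGFBP6 over sh-LUC, for the 107 members, for 214 nearest expressed neighbours of members, and for the other genes with at least 5 CPM in sh-LUC; boxes show the median and quartiles and whiskers reach 1.5 times the quartile range. The members lie low by choice, and the neighbours' median is -0.49 with a tail that reaches the members' range.

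Of all expressed protein-coding autosomal genes, 1.03% were members (107 of 10348). By gene family, read from symbol patterns and given without a test, the share was 66.7% of VPS10 sorting receptors (2 of 3), 22.2% of protease inhibitors (4 of 18, the cystatins), 11.1% of Eph receptors and ephrins (1 of 9), 11.1% of synaptic adhesion genes (2 of 18), 10.5% of Wnt genes (4 of 38), 10.4% of G protein-coupled receptors (7 of 67) and 5.29% of solute carriers (10 of 189). It was 1.04% of lipid and phospholipid enzymes (1 of 96) and 0.816% of signalling kinases and phosphatases (2 of 245). No member was found among 42 TGF-beta, BMP and activin ligands, receptors and antagonists, 34 semaphorin, plexin, netrin and slit genes, 19 claudins and junction proteins, 15 Notch genes, 13 integrins or 10 fibroblast growth factor genes. For the first of these families the name exclusion sets the count. INHBB, an activin gene, met both limits (0.0466 CPM in sh-IGFBP6 and 159 CPM in sh-LUC) and was left out by name. The solute carrier SLCO2A1 was left out in the same way. Levels per kb of exon length in sh-LUC, from the rule's CPM, allow members to be compared with each other. They were highest for CST7 (40.2 CPM per kb), CHST15 (27.5), LYPD6B (23.5), CST4 (20.5), CST1 (19.5), OLFML2A (19.4), SHISA2 (18.9) and PLPP4, a lipid phosphatase (18.5).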

How the data were processed

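Deposited values were raw gene counts of 18 libraries, one table, and all columns were mapped to samples by label. Per the labels' protocols, total RNA was depleted of ribosomal RNA. Per the submitters' processing notes, the authors trimmed reads with cutadapt 4.4, aligned them to GRCh38 with STAR 2.7.7a and counted them with featureCounts. The annotation release is not given in the sources used here, nor is the strand setting. Antisense and overlapping genes cannot be told apart.

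Lines naming no gene (2, at most 0.01082% of a library) and 1 gene with blank counts were left out. Biotypes and positions are from GENCODE 29. Genes were filtered with filterByExpr (minimum count 10, total 15), leaving 15189, and tested with edgeR 4.0.16 in R 4.3.3 (TMM, 1 coefficient per group, robust quasi-likelihood, 12 residual degrees of freedom); DESeq2 1.42.0 was an alternative. Genes to which DESeq2 gave no p-value were counted as not called. Members, lists, roles and relatives were chosen with earlier results of these data known. Some genes under the naming rule are not reported here. Genes are named by rank of fold change, level, limits and position. On simulated data 2-fold rises were called in 96% for DHA and for erastin in sh-LUC. Intervals cover counting error only.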

Additional observations from a re-analysis of the deposited data

Results flagged for a closer look

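For 3 members called in both lines in opposite directions after erastin, the fitted log2 response in sh-IGFBP6 minus that in sh-LUC was 4.13 ± 1.03 for TOX2, 4.18 ± 1.11 for DEPP1 and 2.54 ± 0.73 for OLFML2A (SE, edgeR). The members were chosen for low counts in sh-IGFBP6 and passed the filter only through sh-LUC, so these are fitted values and no difference between the lines is read from them. The sh-IGFBP6 side rests on 8, 1 and 0 reads of TOX2, 7, 2 and 0 of DEPP1 and 10, 4 and 0 of OLFML2A in the erastin libraries.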

How the results depend on the processing

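Limits: sh-IGFBP6 counts of members were too few to show changes, and 1 line stands for each hairpin. The number of members was 107 and became 61 with a sh-LUC limit of 10 CPM and 19 when 0 reads were required in all 9 sh-IGFBP6 libraries; 104 to 111 were found when 1 library was left out, 132 from the 6 control libraries, 74 with a limit of 0.25 CPM, 104 with TMM scaling and 103 without mitochondrial ribosomal RNA. In sh-LUC, members called higher after DHA numbered 2, and 0 by DESeq2 (1 to 2 when 1 library was left out). Members lower after DHA numbered 45, with 32 by DESeq2 and 37 to 46 when 1 library was left out. Members lower after erastin numbered 61 (57 to 60) and higher 14 (11 to 14). DESeq2 gave 54 lower and 11 higher, and library size alone 62 and 10. For DHA against erastin 41 were higher (38 to 41) and 31 lower (28 to 32). There DESeq2 gave 33 higher and 24 lower, and library size alone 46 and 24. The group mean of the log2 TMM factors differed by 0.05 for DHA, -0.11 for erastin and 0.16 for DHA against erastin in sh-LUC. For erastin in sh-IGFBP6 it differed by -0.51, where replicate 3 had a factor of 0.4315. These are differences of factors and not refitted fold changes. In sh-IGFBP6, members higher after erastin numbered 3, and 0 with library size alone, DESeq2 or no filter (0 to 3 when 1 library was left out). Members higher after DHA numbered 2, with 0 under library size alone and DESeq2, and 1 without a filter (1 to 2). Members lower after DHA numbered 2, and 0 under the same 3 settings (0 to 2). No member passed the filter in the 9 sh-IGFBP6 libraries alone, so none could be tested there. Of called members in sh-LUC, 35 of 47 for DHA, 68 of 75 for erastin and 61 of 72 for DHA against erastin were called whichever library was left out. Same-numbered samples did not deviate together (correlations from -0.0398 to 0.0792), so they share only a number; with the replicate block 46 members were lower after DHA, 61 lower and 14 higher after erastin, and 42 higher and 31 lower for DHA against erastin. No direction was reversed under any alternative run.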
